A study of Arabidopsis thaliana with 18 samples.

Results

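The loci described here are mitochondrion-encoded genes of Arabidopsis whose products are known: subunits of respiratory complexes I (nad), III (cob), IV (cox) and V (atp), proteins of the mitochondrial ribosome (rpl, rps), cytochrome c maturation proteins (ccm), the intron maturase matR and the transport protein mttB. The rule that chose them uses locus identifiers and no measured value, but it was set with earlier results of these data known. It gives a list of 33 loci. Of these, 23 have a probe set among the 27827 probe sets with values, and the other 10 were not analysed here. ATMG00080 and ATMG00090 have identical values on every array and were counted once, which leaves 22 members. The reference table pairs 0 of the ATMG loci with a symbol, so each member is given by its locus and no product is attached to a single locus. Of the members, 7 (ATMG00180, ATMG00270, ATMG00285, ATMG00480, ATMG00510, ATMG00830 and ATMG00980) have values identical to a locus on nuclear chromosome 2, where a large copy of mitochondrial DNA lies, and transcripts of such a pair cannot be told apart.

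Plant mitochondria make a small part of their own proteins. Transcripts of the organelle genome are edited, spliced and translated by mitochondrial ribosomes inside the organelle, while most subunits of the same respiratory complexes are encoded in the nucleus and translated by cytosolic ribosomes. Dry seeds hold both kinds of transcript in store, and respiration resumes soon after water uptake. In plant mitochondria a poly(A) tail marks an RNA for degradation, and how far signals from the 3' one-cycle kit used here track the amount of an organelle transcript was not tested.

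RNA came from freshly harvested dry seeds of the abci20 mutant, which is in the Col-0 ecotype, and of Col-0 itself, the reference accession. ABCI20 is a gene of the ABC transporter superfamily. The labels do not say what kind of mutation the line carries. From each genotype, polysomal RNA (messages carrying several ribosomes), monosomal RNA (messages carrying a single ribosome) and total RNA were hybridised, which made 6 groups of 3 arrays and a total of 18. Each biological replicate was a bulk of 8 plants grown in a randomized block layout.

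Deposited values were RMA log2 signals between 0.301 and 12.71, whose precision is limited by the few arrays in a group. The array of abci20 total replicate 1 stood apart, with correlations across genes of 0.893 and 0.915 with the other arrays of its group, against 0.959 between those. ABCI20 itself was lower in the mutant, with log2 differences of -2.32 in polysomal, -2.40 in monosomal and -2.31 in total RNA (SE 0.341, limma adjusted p = 0.00406, 0.00195 and 0.00151). The 11 embryo markers, storage proteins and other seed proteins, had single-array signals between 8.08 and 12.38 log2. The 5 seed coat markers had signals between 1.27 and 4.42, the 4 green tissue markers between 1.19 and 7.21 and the 3 endosperm markers between 2.48 and 11.37. Every member stood at or above percentile 67.16 of the signals of its array in all 18 arrays. Some nuclear genes named below had lower signals, which are given with them.

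The comparison of monosomal with total RNA asks which messages have less or more signal in the monosomal fraction. Whether organelle messages in the monosomal and polysomal fractions were bound to ribosomes was not tested. Mitochondrion-encoded messages had up to 4.71-fold less signal in monosomal than in total RNA of abci20 seeds. The median over members was 7.96 ± 0.122 log2 in monosomal and 9.29 ± 0.299 in total RNA of abci20 seeds, and 8.34 ± 0.154 in monosomal and 9.54 ± 0.218 in total RNA of Col-0 seeds (mean ± SD of 3 arrays each). Under limma, 19 of the 22 members (86.4%) were lower in monosomal RNA of abci20 seeds at an adjusted p under 0.05, against 6.58% of all probe sets. In Col-0 seeds 14 members (63.6%) were lower, against 3.45% of all probe sets. No member was higher in either genotype, and the fitted difference was below 0 for all 22 loci in both genotypes (21 in abci20 with arrays centred on their medians), against 46.9% of all probe sets in abci20 and 45.3% in Col-0. The median member difference was -1.15 in abci20 and -1.01 in Col-0, while the median of all probe sets was 0.05 and 0.06. The array values are relative, so less of a message in a fraction and more of the other messages there cannot be told apart, nor, in bulk seed, can fewer cells and less RNA per cell.

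**Figure D1:**
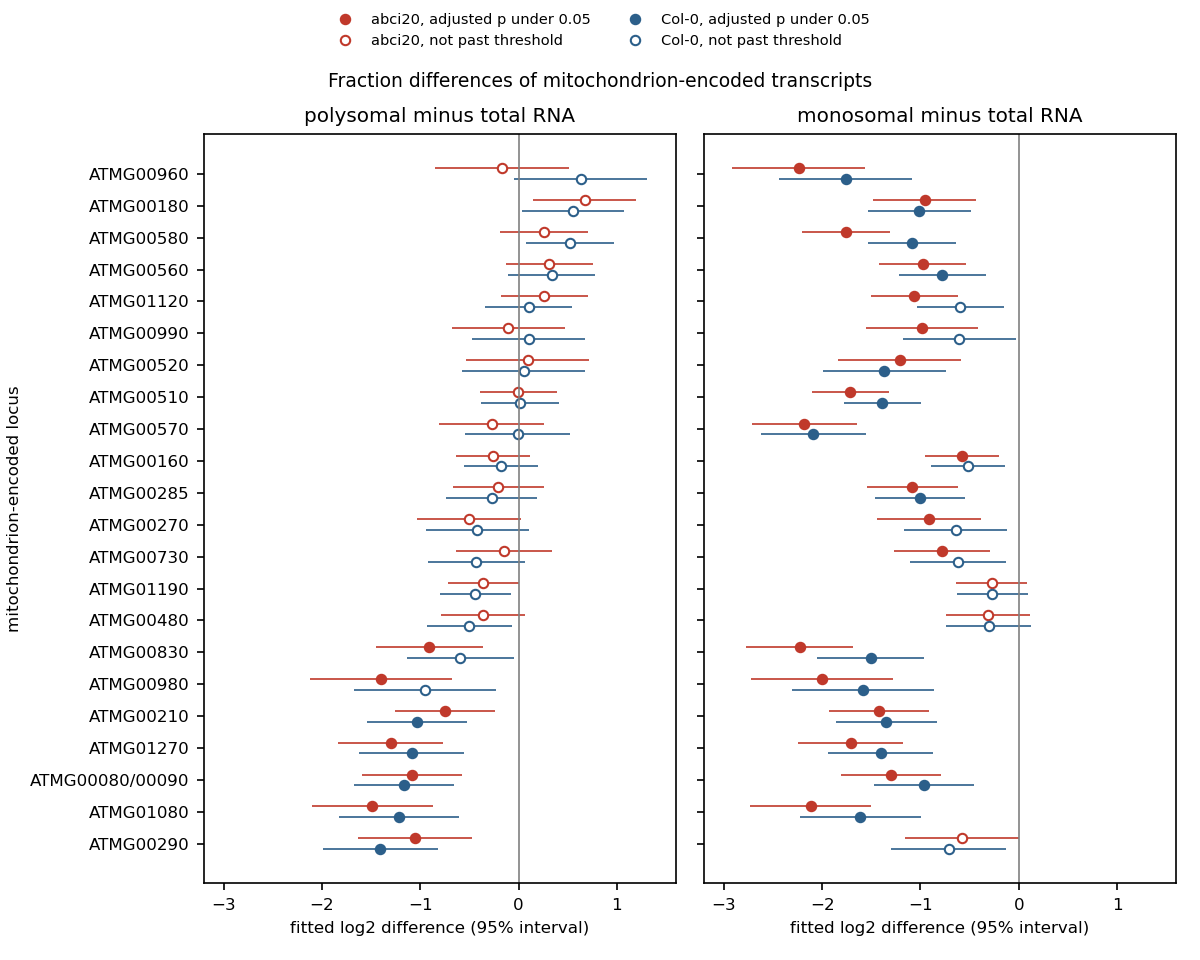
Fitted log2 differences of the 22 mitochondrion-encoded loci (rows) for polysomal minus total RNA (left) and monosomal minus total RNA (right), in abci20 (red) and Col-0 (blue), with 95% intervals; filled points passed an adjusted p of 0.05 in limma. Every point of the right panel lies below 0, whereas the left panel runs from -1.49 to 0.67 in abci20 and from -1.41 to 0.63 in Col-0.

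ATMG00960 (probe set ATMG00960_at) had the largest difference in abci20. Its signal was 5.48, 5.02 and 6.06 log2 in monosomal RNA of abci20 seeds, against 7.31, 8.0 and 7.96 in total RNA. In Col-0 seeds it was 5.84, 5.76 and 5.04 in monosomal RNA, against 7.83, 7.19 and 6.91 in total RNA. Each monosomal array thus lay below each total array of its genotype. The difference was -2.24 in abci20 (SE 0.322, 4.71-fold, adjusted p = 0.000294) and -1.76 in Col-0 (SE 0.322, 3.39-fold, adjusted p = 0.00388).

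ATMG00570 (ATMG00570_at) had nearly the same difference in both genotypes. Its monosomal signals were 5.79, 6.05 and 6.22 in abci20 and 5.83, 6.28 and 6.57 in Col-0. Its total RNA signals were 7.70, 8.21 and 8.69 in abci20 and 8.54, 8.18 and 8.24 in Col-0. All 6 monosomal arrays were below all 6 total arrays. The difference was -2.18 in abci20 (SE 0.254, 4.54-fold, adjusted p = 6.84e-05) and -2.09 in Col-0 (4.26-fold, adjusted p = 0.000252).

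ATMG00830 (ATMG00830_at), one of the loci that share their values with a nuclear copy (AT2G07783, annotated as a transcribed pseudogene), had 5.76, 4.83 and 5.26 log2 in monosomal RNA of abci20 seeds, against 7.05, 7.51 and 7.98 in total RNA. In Col-0 seeds the monosomal values were 6.33, 5.92 and 6.29, against 7.82, 7.70 and 7.55 in total RNA. The groups did not overlap in either genotype, and the difference was -2.23 in abci20 (adjusted p = 6.84e-05) and -1.51 in Col-0 (adjusted p = 0.00261). ATMG01080 (ATMG01080_at) was lower in monosomal RNA too, with differences of -2.12 in abci20 (adjusted p = 0.000212) and -1.61 in Col-0 (adjusted p = 0.00361).

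Among the rest, ATMG00980, ATMG00580, ATMG00510 and ATMG01270 had abci20 differences of -2.00, -1.75, -1.71 and -1.71. Their Col-0 differences were -1.58, -1.09, -1.39 and -1.40, all past the threshold. ATMG00510 had the smallest adjusted p among members in abci20, 4.51e-05, with monosomal values of 7.87, 7.70 and 7.98 against 9.54, 9.64 and 9.51 in total RNA. Its SD was 0.141 in monosomal and 0.071 in total RNA of abci20 seeds, against 0.316 and 0.069 in those of Col-0 seeds. This locus shares its values with nuclear AT2G07709.

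All 14 loci called in Col-0 were also called in abci20, where they make up 73.7% of the 19. The 5 called in abci20 alone were ATMG00160, ATMG00270, ATMG00730, ATMG00990 and ATMG01120, with Col-0 differences from -0.52 (ATMG00160, adjusted p = 0.0908) to -0.64 (ATMG00270, adjusted p = 0.13). A call in one genotype only does not show that the genotypes differ, which is tested below. The smallest differences were those of ATMG01190 (-0.28 in abci20, adjusted p = 0.294, and -0.27 in Col-0, adjusted p = 0.362) and ATMG00480 (-0.31 in both, adjusted p = 0.316 and 0.389). ATMG01190 had 11.77, 11.82 and 11.79 log2 in monosomal RNA, against 11.90, 12.33 and 11.98 in total RNA of abci20 seeds, which is near the top of the deposited range of 12.71. Whether signals so near the top can still register differences of the size seen at other members was not tested.

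**Figure D2:**
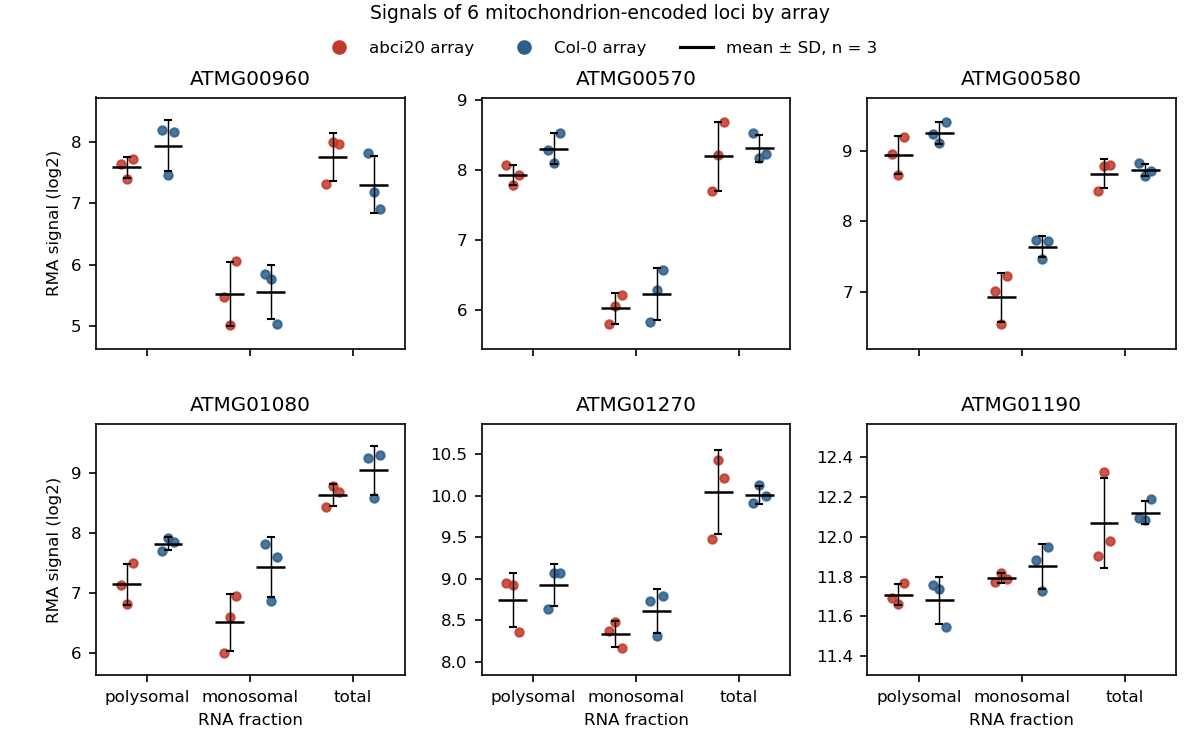
RMA log2 signals of 6 mitochondrion-encoded loci in the 18 arrays, by RNA fraction (x axis), with abci20 (red) left of Col-0 (blue) and the mean ± SD of 3 arrays in black; the y axes differ between panels and do not start at 0. ATMG00960, ATMG00570 and ATMG00580 are low in monosomal RNA alone, ATMG01080 and ATMG01270 are lower in both gradient fractions than in total RNA, and the signals of ATMG01190 lie between 11.54 and 12.33.

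These counts depend on the pooled spread of all 18 arrays. When only the groups compared entered the fit, 7 members passed in abci20 and 9 in Col-0. Among the 15 members with no identical nuclear locus, a selection added after seeing the data, 13 passed in abci20 and 9 in Col-0, with median differences of -1.21 and -0.96. Without abci20 total replicate 1, the array that stood apart, 19 members passed in abci20 and the median difference was -1.39. Without abci20 total replicate 2, 13 members passed and the median difference was -1.02.

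Polysomal RNA differed from total RNA for fewer mitochondrion-encoded loci and in a more mixed way. The member median was 8.89 ± 0.209 log2 in polysomal RNA of abci20 seeds and 9.08 ± 0.0737 in polysomal RNA of Col-0 seeds (SD, n = 3), against the total RNA values above. In abci20 7 members (31.8%) were lower in polysomal than in total RNA, against 10.2% of all probe sets, and in Col-0 5 members (22.7%), against 3.07%. None was higher at the threshold, whereas with a replicate block 8 members passed in abci20, 1 of them higher. The median member difference was -0.27 in abci20 and -0.35 in Col-0. Embryo markers had medians of -0.37 in abci20 and -0.39 in Col-0 in the same comparison, with 2 and 1 of 11 lower, and their part in the result was not tested. The medians of all probe sets were 0.02 and 0.01. With each array centred on its median, the abci20 member median became 0.05, with 4 loci higher and 4 lower, beside a shift of 0.32 in the median of all probe sets, and the Col-0 member median became -0.13 beside a shift of 0.21.

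ATMG01080 had 7.12, 6.81 and 7.49 log2 in polysomal RNA of abci20 seeds, against 8.43, 8.78 and 8.68 in total RNA. In Col-0 seeds it had 7.70, 7.91 and 7.85, against 9.24, 8.57 and 9.29 in total RNA. The polysomal arrays were below the total arrays throughout. The difference was -1.49 in abci20 (SE 0.291, 2.81-fold, adjusted p = 0.00308) and -1.22 in Col-0 (2.33-fold, adjusted p = 0.021).

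ATMG01270 had 8.95, 8.93 and 8.36 in polysomal RNA of abci20 seeds, against 9.48, 10.44 and 10.22 in total RNA. In Col-0 seeds it had 8.63, 9.07 and 9.08, against 9.91, 10.13 and 10.0005. No polysomal array reached the lowest total array of its genotype, and the difference was -1.3 in abci20 (SE 0.253, adjusted p = 0.00302) and -1.09 in Col-0 (adjusted p = 0.0187). The probe sets of ATMG00080 and ATMG00090, which share 1 set of values, showed 8.38, 8.12 and 8.18 in polysomal RNA of abci20 seeds against 8.96, 9.84 and 9.15 in total RNA. Their difference was -1.09 in abci20 (adjusted p = 0.00591) and -1.17 in Col-0 (adjusted p = 0.0112).

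ATMG00290 had the largest polysomal minus total difference of the members in Col-0. Its signal was 6.84, 7.13 and 6.14 in polysomal RNA, 7.37, 7.29 and 6.88 in monosomal RNA and 7.87, 7.71 and 7.70 in total RNA of abci20 seeds. In Col-0 seeds the values were 6.17, 7.10 and 6.21 in polysomal, 7.16, 7.38 and 7.03 in monosomal and 7.65, 8.02 and 8.02 in total RNA. Polysomal minus total differences were -1.06 in abci20 (SE 0.276, adjusted p = 0.0135) and -1.41 in Col-0 (adjusted p = 0.00915). Its monosomal minus total differences of -0.58 and -0.71 missed the threshold (adjusted p = 0.169 and 0.129), as did its polysomal minus monosomal differences of -0.48 in abci20 and -0.69 in Col-0 (adjusted p = 0.293 and 0.106). ATMG00210 was the fifth locus lower in polysomal RNA of both genotypes, with differences of -0.75 in abci20 (adjusted p = 0.035) and -1.03 in Col-0 (adjusted p = 0.0192).

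The 5 loci of Col-0 were all among the 7 of abci20, which is 71.4% of those. ATMG00980 and ATMG00830 passed in abci20 alone, at -1.40 (adjusted p = 0.00965) and -0.91 (adjusted p = 0.0206), with Col-0 differences of -0.96 (adjusted p = 0.0954) and -0.59 (adjusted p = 0.169). Both share their values with a nuclear locus. At the other end, ATMG00180 had 9.03, 8.60 and 9.18 in polysomal RNA of abci20 seeds against 7.88, 8.33 and 8.58 in total RNA, without overlap, yet the difference of 0.67 missed the threshold (SE 0.248, adjusted p = 0.0596), as did that of 0.55 in Col-0 (adjusted p = 0.178).

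Single arrays carried part of these calls. In Col-0 the count was 0 without polysome replicate 3, 1 without polysome replicate 1 and 3 without total replicate 2. In abci20 it was 4 without total replicate 2, 7 without total replicate 1, which stood apart, and 1 when only the groups compared were fitted.

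Set directly against monosomal RNA, polysomal RNA held more signal of many members. In abci20 11 members (50%) were higher in polysomal RNA, against 7.31% of all probe sets, and in Col-0 10 members (45.5%), against 8.2%. None was lower at the threshold. The median member difference was 0.77 in abci20 and 0.66 in Col-0, while that of all probe sets was -0.11 and -0.13. All 10 loci of Col-0 were among those of abci20 (90.9% of them), and ATMG00990 was the one added there (0.88, adjusted p = 0.0467, against 0.70 in Col-0, adjusted p = 0.0956). This comparison and both others share arrays, so their values are given side by side and not counted together.

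ATMG00580 had 8.95, 8.66 and 9.19 log2 in polysomal RNA of abci20 seeds, against 7.01, 6.54 and 7.22 in monosomal RNA. In Col-0 it had 9.23, 9.11 and 9.41, against 7.73, 7.47 and 7.71. The fractions were far apart in every array, and the difference was 2.01 in abci20 (SE 0.212, 4.04-fold, adjusted p = 3.39e-05) and 1.61 in Col-0 (adjusted p = 0.000168). Beside it, the total RNA of this locus was 8.43, 8.79 and 8.80 in abci20 and 8.82, 8.64 and 8.72 in Col-0, and the polysomal minus total difference was 0.26 in abci20 (adjusted p = 0.402) and 0.52 in Col-0 (adjusted p = 0.138).

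ATMG00960 was higher in polysomal than monosomal RNA by 2.07 in abci20 (adjusted p = 0.000642) and 2.39 in Col-0 (5.25-fold, adjusted p = 0.000193). Its polysomal values were 7.65, 7.40 and 7.72 in abci20 and 8.20, 7.46 and 8.16 in Col-0, which overlap the total RNA values in both genotypes. ATMG00570 was higher by 1.91 in abci20 and 2.08 in Col-0, ATMG00510 by 1.71 and 1.40, and ATMG00180 by 1.63 and 1.56. ATMG00560 followed with 1.29 and 1.11 and ATMG00520 with 1.3 and 1.42 in the same genotypes. For ATMG01080 and ATMG01270, low in both gradient fractions, the polysomal minus monosomal difference was 0.63 and 0.41 in abci20 (adjusted p = 0.185 and 0.329) and 0.39 and 0.32 in Col-0 (adjusted p = 0.383 and 0.423). ATMG01190 and ATMG00480, with differences between -0.20 and -0.05, passed the threshold in no fraction comparison. Without the members that share values with a nuclear locus, 7 of 15 passed in abci20 and 6 of 15 in Col-0, and the Col-0 median was 0.39.

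The comparison of abci20 with Col-0 asks whether the mutant, with its lower ABCI20 signal, has other levels of mitochondrial messages at harvest. No member passed the threshold in any fraction under limma. The comparison called 0.442% of all probe sets in polysomal, 1.83% in monosomal and 3.35% in total RNA. Fitted differences leaned to lower signal in the mutant, most in monosomal RNA, but single loci did not hold up against the spread between arrays after adjustment. The median member difference was -0.19 in polysomal, -0.30 in monosomal and -0.18 in total RNA, against -0.01, -0.03 and 0.01 for all probe sets. Embryo markers leaned the same way, with differences below 0 for 10, 9 and 10 of 11 genes and medians of -0.15, -0.11 and -0.21 in these fractions, and 0 of them passed. In monosomal RNA their mean signal ran from 11.55 to 11.66 log2 over abci20 arrays and from 11.59 to 11.75 over Col-0 arrays. Of the 3 endosperm markers 1 was higher in monosomal RNA of abci20, where their mean ran from 6.03 to 6.54, against 5.70 to 5.81 in Col-0. The part of these markers in the member differences was not tested.

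**Figure D3:**
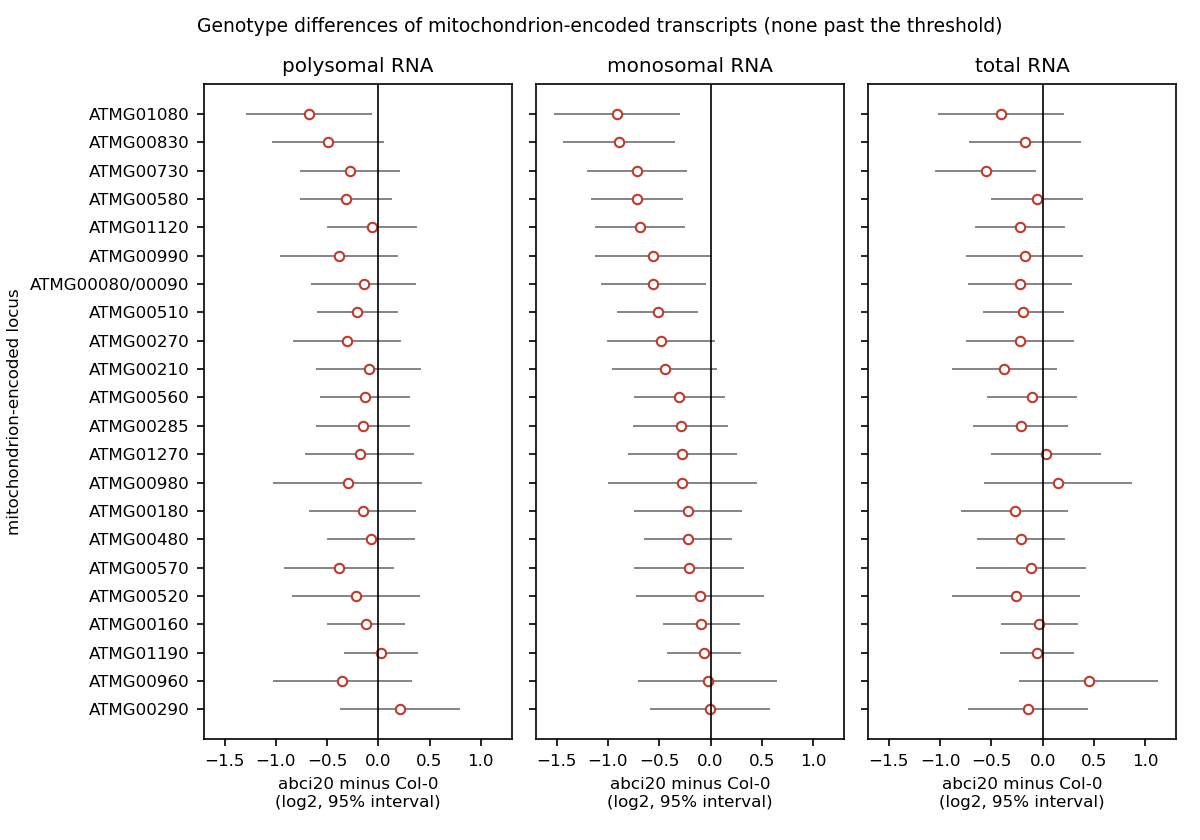
Fitted abci20 minus Col-0 log2 differences of the 22 mitochondrion-encoded loci (rows) in polysomal, monosomal and total RNA, with 95% intervals. Points in monosomal RNA lie between -0.91 and -0.01, and no point in any panel passed an adjusted p of 0.05 in limma.

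In monosomal RNA all 22 differences were below 0 (20 with quantile normalization, 21 with centred arrays), against 52.9% of all probe sets. Before adjustment 7 members were lower at p under 0.05, against 7.28% of all probe sets, and for 9 members each mutant array lay below each Col-0 array, against 10.3%. The smallest adjusted p was 0.0878, for ATMG00830, at 5.76, 4.83 and 5.26 log2 in abci20 and 6.33, 5.92 and 6.29 in Col-0 (difference -0.90, SE 0.259, 1.86-fold, 95% interval -1.44 to -0.35). ATMG01080 had the largest difference, -0.91 (SE 0.291, adjusted p = 0.123), with 6.0, 6.59 and 6.94 in abci20 and 7.82, 6.86 and 7.60 in Col-0. Its groups overlapped, since 1 mutant array exceeded the lowest Col-0 array. ATMG00730 had 8.31, 8.72 and 8.90 in abci20 and 9.56, 9.02 and 9.51 in Col-0, without overlap (difference -0.72, SE 0.232, adjusted p = 0.128). The call of 0 members became 3 lower when only brighter probe sets were tested and 6 lower with a variance trend and robust estimation. Shares of all probe sets called under these settings are not given here, so whether calls rose for members in particular was not tested.

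In polysomal RNA 20 of the 22 differences were below 0, against 51.3% of all probe sets. Before adjustment 1 member was lower at p under 0.05, against 3.87% of all probe sets. This was ATMG01080, at 7.12, 6.81 and 7.49 in abci20 and 7.70, 7.91 and 7.85 in Col-0 (difference -0.68, SE 0.291, adjusted p = 0.539), and its groups did not overlap. Mutant arrays lay below all Col-0 arrays for 7 members, against 11% of all probe sets. ATMG00830 and ATMG00990 came next with -0.49 (adjusted p = 0.725) and -0.38 (adjusted p = 0.918).

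In total RNA 19 differences were below 0 (15 with quantile normalization, 20 with centred arrays), against 49.3% of all probe sets. Before adjustment 1 member was lower, against 9.5% of all probe sets. This was ATMG00730, at 8.98, 9.48 and 9.82 in abci20 and 9.89, 9.95 and 10.12 in Col-0 (difference -0.56, SE 0.232, adjusted p = 0.215). Mutant and Col-0 arrays did not overlap for this locus and 2 others, against 10% of all probe sets. ATMG00960 went the other way with 0.45 (adjusted p = 0.528) and overlapping groups, at 7.31, 8.0 and 7.96 in abci20 and 7.83, 7.19 and 6.91 in Col-0. The member median of -0.18 rested on the array that stood apart, since it was 0.00 without abci20 total replicate 1.

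The difference of the fraction contrasts between genotypes was tested directly. No member passed for polysomal over total, monosomal over total or polysomal over monosomal RNA, and limma called 0% of all probe sets in each. Before adjustment 0, 1 and 1 members passed at p under 0.05 in these tests, against 4.54%, 8.16% and 2.67% of all probe sets. ATMG00580 came nearest, with a monosomal minus total difference 0.66 log2 further below 0 in abci20 than in Col-0 (difference -0.66, SE 0.301, 95% interval -1.3 to -0.03, adjusted p = 0.607). For ATMG00830 the interval of the same contrast ran from -1.49 to 0.05, and for ATMG00960 that of polysomal over total RNA from -1.76 to 0.16, so differences above 2-fold between genotypes remained within the error.

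Respiratory complexes also need subunits encoded in the nucleus. Lists of 145 nuclear genes of mitochondrial function were compared with total RNA in the same fit. In abci20 45 of them were higher and 7 lower in monosomal RNA, and in Col-0 12 were higher and 3 lower. For comparison, 8.15% of all probe sets were higher and 6.58% lower in abci20, and 3.2% higher and 3.45% lower in Col-0.

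**Figure D4:**
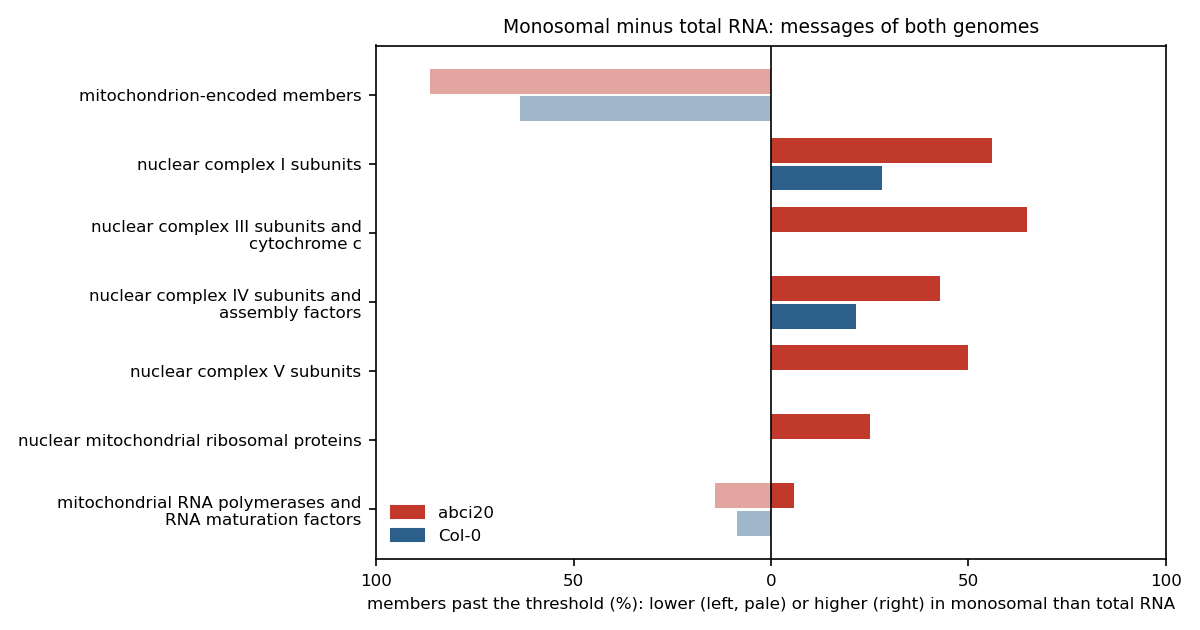
Share of each list past an adjusted p of 0.05 in limma in monosomal against total RNA (x axis, percent), with loci lower in monosomal RNA to the left (pale) and higher to the right, for abci20 (red) and Col-0 (blue). Mitochondrion-encoded members extend to the left alone, at 86.4% and 63.6%, and nuclear subunits of complexes I and IV to the right alone in both genotypes. Complexes III and V extend to the right in abci20 and have no locus past the threshold in Col-0.

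Of 25 nuclear complex I (NADH dehydrogenase) subunits, 14 were higher and 0 lower in monosomal RNA of abci20 seeds, and 7 were higher and 0 lower in Col-0 seeds, with median differences of 0.85 and 0.65. CIB22, a complex I subunit, averaged 7.75 log2 in monosomal and 6.32 in total RNA of abci20 seeds (difference 1.42, SE 0.179, adjusted p = 0.000116). MEE4, another, averaged 7.43 in monosomal and 5.87 in total RNA of abci20 seeds (1.56, SE 0.208, adjusted p = 0.000189) and 7.05 and 5.83 in those of Col-0 (1.22, adjusted p = 0.00255). Of 17 genes for complex III and cytochrome c, 11 were higher in abci20 and 0 in Col-0, with median differences of 0.83 and 0.39. CYTC-2, which encodes the mobile electron carrier cytochrome c, averaged 8.60 in monosomal and 7.56 in total RNA of abci20 seeds (1.04, SE 0.191, adjusted p = 0.00189).

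Complex IV (cytochrome c oxidase) had 6 of 14 genes higher in abci20 and 3 in Col-0, among them COX17 in abci20, a copper chaperone for the oxidase (1.51, SE 0.286, adjusted p = 0.00239). Complex V (ATP synthase) had 6 of 12 higher in abci20 and 0 in Col-0, among them ATPQ (1.04, SE 0.225, adjusted p = 0.00595) and ATP5 (0.90, SE 0.211, adjusted p = 0.00951). Of 8 nuclear genes for mitochondrial ribosomal proteins 2 were higher in abci20 and 0 in Col-0. Complex II, whose subunits are all encoded in the nucleus in Arabidopsis, had 1 gene higher and 1 lower of 9 in abci20 and none past the threshold in Col-0. These were SDH6, with a difference of 1.0, and SDH1-2, with a difference of -2.09 between mean signals of 2.50 in monosomal and 4.60 in total RNA, the first of them below the median of all probe sets on those arrays. In the direct test of this contrast between genotypes limma called 0 probe sets (1 with quantile normalization), so the unequal counts do not show a genotype difference.

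Import and accessory genes were also compared in monosomal against total RNA. Of all probe sets, 8.15% were higher and 6.58% lower there in abci20, and 3.2% higher and 3.45% lower in Col-0. Of 10 carrier, channel and chaperone genes 2 were higher in monosomal RNA of each genotype, of 12 genes for alternative respiratory enzymes 1 was lower in abci20 and none passed in Col-0, and of 3 nuclear genes for cytochrome c maturation 1 was higher in abci20 and 0 in Col-0. TOM20-3, a receptor of the protein import channel of the outer membrane, was higher in monosomal RNA by 1.54 in abci20 (SE 0.286, adjusted p = 0.0021) and 1.41 in Col-0 (adjusted p = 0.00737). ABCI1 of cytochrome c maturation was higher in abci20 by 1.03 in monosomal RNA (SE 0.285, adjusted p = 0.0231) and by 1.32 in polysomal RNA (adjusted p = 0.00508). In polysomal against total RNA, 35 of the 145 nuclear genes were higher and 6 lower in abci20, and 8 higher and 1 lower in Col-0. Among all probe sets, 11.9% were higher and 10.2% lower in abci20, and 4.06% higher and 3.07% lower in Col-0.

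These counts moved with arrays and scaling. Without abci20 total replicate 1, which changes the pooled spread for both genotypes, 55 nuclear genes were higher and 18 lower in monosomal RNA of abci20 seeds and 24 higher and 7 lower in that of Col-0. Shares of all probe sets in that fit are not given here, so its counts have no reference. With centred arrays the counts were 63 higher and 4 lower in abci20 and 17 higher and 2 lower in Col-0. All probe sets moved too: with centred arrays 17.9% were higher and 3.86% lower in abci20, and 4.36% higher and 2.24% lower in Col-0.

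Between the genotypes, 1 of the 145 genes passed in total RNA, against 3.35% of all probe sets, and 2 in monosomal RNA, against 1.83%, with 0 in polysomal RNA. The lists thus held no more calls than probe sets in general. SHOT1, of the mTERF family, was lower in the mutant in total RNA, at 4.59 log2 in abci20 and 5.67 in Col-0 (difference -1.08, SE 0.284, adjusted p = 0.045), and in monosomal RNA, at 4.14 in abci20 and 5.36 in Col-0 (difference -1.22, adjusted p = 0.0351). AAC1, an ADP/ATP carrier of the inner membrane, was higher in monosomal RNA, at 8.26 in abci20 and 7.36 in Col-0 (difference 0.91, SE 0.222, adjusted p = 0.0448). With centred arrays both monosomal calls were lost (adjusted p = 0.069 for SHOT1 and 0.088 for AAC1). SHOT1 and AAC1 differed by -1.32 (adjusted p = 0.0105) in total RNA and 0.91 (adjusted p = 0.0277) in monosomal RNA without abci20 total replicate 1.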

How the data were processed

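The deposited values are log2 signals that the authors made with RMA, per the submitters' processing notes, for 27827 probe sets, 1 per locus, on 18 arrays. The RMA version, the probe set definition and whether all arrays were processed together are not given in the sources used here. RNA was purified with TriPure and RNeasy columns, per the labels' protocols. The members and gene lists were chosen with earlier results of these data known.

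No value was filtered or rescaled. A mean for every group was estimated from all arrays with lmFit and eBayes (limma 3.58.1, R 4.3.3), which left 12 residual degrees of freedom. Tests were two-sided with Benjamini-Hochberg adjustment over all probe sets of a comparison and a threshold of 0.05. The 12 comparisons were genotypes within fractions, fractions within genotypes and the genotype differences of the fraction contrasts. On data simulated for the total RNA comparison with 27827 probe sets, the fit recovered 0, 12, 27 and 42 of 50 changes of 0.5, 1, 1.5 and 2 log2, with 4 false calls. In the files, 182 probe sets have values identical to another. The other software was statmod 1.5.0 for robust estimation and, for plots, Python 3.11.15 with matplotlib 3.10.9.

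Named members were those past the threshold in a genotype comparison or interaction, otherwise the 3 with the largest difference of each comparison, and the 4 with the largest rise and fall of each fraction comparison. Others were named after their values were seen. Up to 4 genes of each nuclear list could be named. Neighbouring gene pairs that the rule also held, and the order of levels between members, were not used, because no table pairs the loci with symbols and levels of different probe sets are not comparable. RPOTM was left out of its list because the reference table gives its locus another symbol, and SDH3-2 was not analysed here.

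The main fit held no block, so arrays with the same replicate number were treated as independent. In the alternative with a replicate block, replicate numbers were taken as shared blocks from the layout stated in the labels. As a check, residual correlations of same-numbered arrays ran from -0.166 to 0.245 in 27 pairs, of which 7 exceeded 0.1. Alternatives were a replicate block, a block by seed bulk, only the groups compared, quantile normalization, arrays centred on their medians, brighter probe sets, a variance trend with robust estimation, identical probe sets counted once and leaving out each array. Members with no identical nuclear locus, and the nuclear lists under other scalings or without abci20 total replicate 1, were added after seeing the data. Whether those members have nuclear copies with no probe set of their own was not tested.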

Additional observations from a re-analysis of the deposited data

How the results depend on the processing

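No difference of a named member past the threshold reversed its direction under any alternative run. For members past the threshold, fitting only the groups compared gave 1 in polysomal against total RNA of abci20, 7 in monosomal against total RNA of abci20 and 9 in that of Col-0. This fit has 4 residual degrees of freedom. In monosomal RNA of abci20 against Col-0 the count was 6 with robust estimation on a variance trend and 3 among brighter probe sets. For both settings the share of all probe sets is not given here. Restricted to the 15 members with no identical nuclear locus, the count was 9 in monosomal against total RNA of Col-0. For polysomal against monosomal RNA it was 7 in abci20 and 6 in Col-0. The Col-0 medians were -0.18 for polysomal against total RNA and 0.39 for polysomal against monosomal RNA. Fewer members enter there. Centring the arrays gave medians of 0.054 (polysomal against total RNA, abci20), -0.85 (monosomal against total RNA, abci20) and -0.13 (polysomal against total RNA, Col-0). It moved the calls over all probe sets in polysomal against total RNA of abci20 to 6820 higher and 1767 lower, against 3304 and 2845. Leaving out 1 array gave 4 to 7 members in polysomal against total RNA of abci20 and 0 to 5 in that of Col-0, 13 to 19 and 10 to 12 in monosomal against total RNA, 9 to 11 and 7 to 8 in polysomal against monosomal RNA, and 0 in each genotype comparison. The median for monosomal against total RNA of abci20 then ran from -1.39 to -1.02. With a replicate block, 8 members passed in polysomal against total RNA of abci20, 1 of them higher, and the other counts were those without the block. With a block by seed bulk the counts were 8, 18 and 10 in abci20 and 5, 12 and 9 in Col-0 for polysomal over total, monosomal over total and polysomal over monosomal RNA. Under all alternatives for single members, a call was kept for 7 of 19 and 8 of 14 members in monosomal against total RNA, 1 of 7 and 0 of 5 in polysomal against total RNA and 9 of 11 and 7 of 10 in polysomal against monosomal RNA, in abci20 and Col-0. In the data simulated for the total RNA genotype comparison, with 3 arrays a group, changes of 1 log2 or less were mostly missed. Fraction comparisons were not simulated, and smaller differences passed there, such as -0.57 for ATMG00160 in monosomal against total RNA of abci20.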

Other observations

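The other mitochondrion-encoded probe sets, 68 loci outside the list of genes with known products, were compared in the same fit. In monosomal against total RNA 58 of them were lower in abci20 and 46 in Col-0, against 6.58% and 3.45% of all probe sets. None was higher, and the median differences were -2.61 and -2.01. In polysomal against total RNA 44 were lower and 3 higher in abci20, and 33 lower and 1 higher in Col-0, with medians of -2.30 and -1.56. The shares of all probe sets were 10.2% lower and 11.9% higher in abci20, and 3.07% lower and 4.06% higher in Col-0. The members had medians of -0.27 and -0.35 in that comparison, and this gap was not tested. In polysomal against monosomal RNA 14 of the 68 loci were higher and 1 lower in abci20, and 15 higher and 1 lower in Col-0. Higher calls made up 7.31% of all probe sets in abci20 and 8.2% in Col-0. The medians of the 68 loci were 0.50 and 0.64, against member medians of 0.77 and 0.66. With centred arrays the medians of these 68 loci in polysomal against total RNA were -1.98 and -1.34.

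Chloroplast-encoded messages, at 13 probe sets, gave 5 lower in abci20 and 4 lower in Col-0 in polysomal against total RNA. The shares of all probe sets lower there were 10.2% and 3.07%. In monosomal against total RNA 4 and 1 were lower, against 6.58% and 3.45% of all probe sets. Nuclear genes for mitochondrial RNA polymerases and RNA maturation factors, most of which act on transcripts of the organelle, were also compared in monosomal against total RNA. Of 35, 2 were higher and 5 lower in abci20, and 0 were higher and 3 lower in Col-0, with medians of -0.46 and -0.42. Of all probe sets, 8.15% were higher and 6.58% lower in abci20, and 3.2% higher and 3.45% lower in Col-0. The list's own shares, 5.71% higher and 14.3% lower in abci20 and 8.57% lower in Col-0, rest on few genes. Among them were ABO5, a pentatricopeptide repeat protein gene, in abci20 (4.34 in monosomal and 5.68 in total RNA, difference -1.35, SE 0.304, limma adjusted p = 0.00759), and the RNA editing factor MEF18 in Col-0 (3.63 and 4.91, difference -1.28, SE 0.287, adjusted p = 0.0139). Without abci20 total replicate 1 the counts for these 35 genes were 3 higher and 15 lower in abci20 and 0 higher and 6 lower in Col-0. That fit changes the pooled spread of all probe sets, whose shares under it are not given here, so these counts have no reference.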
